A study of Mus musculus with 16 samples.

Results

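The insulin signalling genes described here are the receptor Insr, the receptor substrates Irs1 and Irs2, the PI3K regulatory subunits Pik3r1 and Pik3r3, the kinases Akt1, Akt2 and Sgk1, and the transcription factors Foxo1 and Foxo3. They were taken as every probe whose annotation gave exactly one of these 10 symbols, so that a probe naming several genes was not used. This gave 22 probes of 38467 on the array, for 9 of the 19640 genes measured. Irs2 had no probe that named it alone and has no value here. RNA came from 3T3-L1 cells, an established line of mouse preadipocytes that can be made into adipocytes in culture. The groups were dexamethasone (dex), a synthetic glucocorticoid, for 2 h or for 36 h, and the solvent DMSO for the same 2 times, with 4 biological replicates each. Every sample was labelled with Cy5 and hybridised with a Cy3-labelled pool of the samples, so each value is a log ratio of sample over pool, used here as log2. The log base is not recorded, and the fold values below hold only if it is 2. The labels give neither the dose of dex nor other additions to the medium, and all groups are of 1 cell line.

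Insulin bound to its receptor leads to tyrosine phosphorylation of the receptor substrates, which recruit PI3K through its regulatory subunits. The lipid that PI3K makes activates the AKT kinases and, through a related route, SGK1, and these kinases phosphorylate FOXO factors and so keep them out of the nucleus. In fat cells this pathway drives glucose uptake and lipid storage, and glucocorticoids are known both to oppose insulin action and to be part of the hormone mixture that starts adipocyte differentiation. The messages of the pathway were compared between dex and DMSO at each time to ask which of its steps the glucocorticoid altered in preadipocytes. A ratio to a pool shows how groups differ for a probe, not how abundant one gene is beside another, and it carries no information on protein or phosphorylation.

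Dex lowered the substrate Irs1 and raised the subunit Pik3r1, the kinase Sgk1 and the factor Foxo3 at both times. At 36 h Foxo1 was also higher and Pik3r3 lower, neither of which passed the test at 2 h. The receptor Insr and the kinases Akt1 and Akt2 did not pass the test for dex against DMSO at either time. With arrays weighted by their quality, all 3 passed at 36 h, with adjusted p values of 0.0434 for Insr, 0.0436 for Akt1 and 0.00178 for Akt2, in a fit that called 9087 of all genes. Differences were tested per probe in limma over all 16 arrays with Benjamini-Hochberg adjustment over all probes, and a gene was called where 1 of its probes had an adjusted p under 0.05. By that rule 4 of the 9 genes were called at 2 h, against 3.18% of all genes, with 3 higher (1.97% of all genes) and 1 lower (1.21%). At 36 h 6 of the 9 were called, against 11.7% of all genes, with 4 higher (6.88%) and 2 lower (4.96%). These genes have 1 to 4 probes each, and a gene with more probes has more chances to be called. Counted by probe, 9 of the 22 were called at 2 h, against 2.22% of all probes, and 12 at 36 h, against 8.83%. With log-odds above 0, the rule of the study's design text, the same 4 genes were called at 2 h (2.53% of all genes) and 5 of the 9 at 36 h (5.23%), Pik3r3 being the one not called.

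As a check that dex acted, Fkbp5, an immunophilin gene known to respond to glucocorticoids, was higher by 2.36 ± 0.12 at 2 h and by 3.11 ± 0.12 at 36 h on the log2 scale. The residual SD of an array over all probes was 0.168 to 0.333 in dex and 0.183 to 0.435 in DMSO at 2 h, and 0.122 to 0.205 in dex and 0.108 to 0.151 in DMSO at 36 h, so the 2-hour arrays were noisier. Replicate 4 of DMSO at 2 h stood apart, with a mean correlation of -0.10 with the other arrays of its group. No dex response of a member passed or lost the test at 2 h when that array, or any other 1 array, was left out. Each probe has 1 error over all 16 arrays, so the SE given at 2 h and at 36 h is the same for a probe and tends to understate the spread at 2 h. As these are ratios, the labelled cell type could not be checked by the level of its markers. For the marker counts that follow, the share called over all genes was 3.18% at 2 h and 11.7% at 36 h. Of 7 preadipocyte markers 1 was called at 2 h and 3 at 36 h, and these fell (Pdgfrb at both times, Dlk1 and Zfp423 at 36 h). Of 9 adipocyte markers 1 rose and 1 fell at 2 h, Fabp4 with 1.60 (adjusted p = 0.00835) and Cebpa with -0.55 (adjusted p = 0.0309), and 2 rose at 36 h, Fabp4 with 2.59 and Pparg with 0.82. The mean of the adipocyte markers was -0.14 to 0.13 on the dex arrays and -0.17 to 0.17 on the DMSO arrays at 2 h. It was -0.050 to 0.26 on the dex arrays and -0.39 to -0.28 on the DMSO arrays at 36 h. The adipocyte markers not called at 36 h differed by -0.21 (Cebpa) to 0.50 (Lipe), so that mean was moved most by Fabp4 and Pparg. The mean of the preadipocyte markers was -0.15 to -0.0023 in dex and 0.050 to 0.18 in DMSO at 2 h. At 36 h it was -0.10 to 0.00041 in dex and 0.073 to 0.30 in DMSO. The part of these markers in the results below was not tested. In RNA from whole cultures, fewer cells of a type and less RNA per cell cannot be told apart. Of 7 macrophage and 7 endothelial markers 0 were called in limma at either time, with 0 and 2 at an unadjusted p under 0.05 at 2 h and 2 and 0 at 36 h. The share of all genes at that unadjusted p was not counted for dex against DMSO, so these unadjusted counts have no background beside them. Of 6 epithelial markers Krt8 rose at 36 h, by 1.15. The mean of the epithelial markers was 0.085 to 0.16 in dex and -0.15 to -0.065 in DMSO at 36 h. The epithelial markers other than Krt8 differed by -0.16 (Epcam) to 0.21 (Krt18) at 36 h and were not called, so Krt8 moved that mean most. At 2 h the epithelial means of dex and DMSO arrays overlapped, and the macrophage and endothelial means overlapped at both times.

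**Figure D1:**
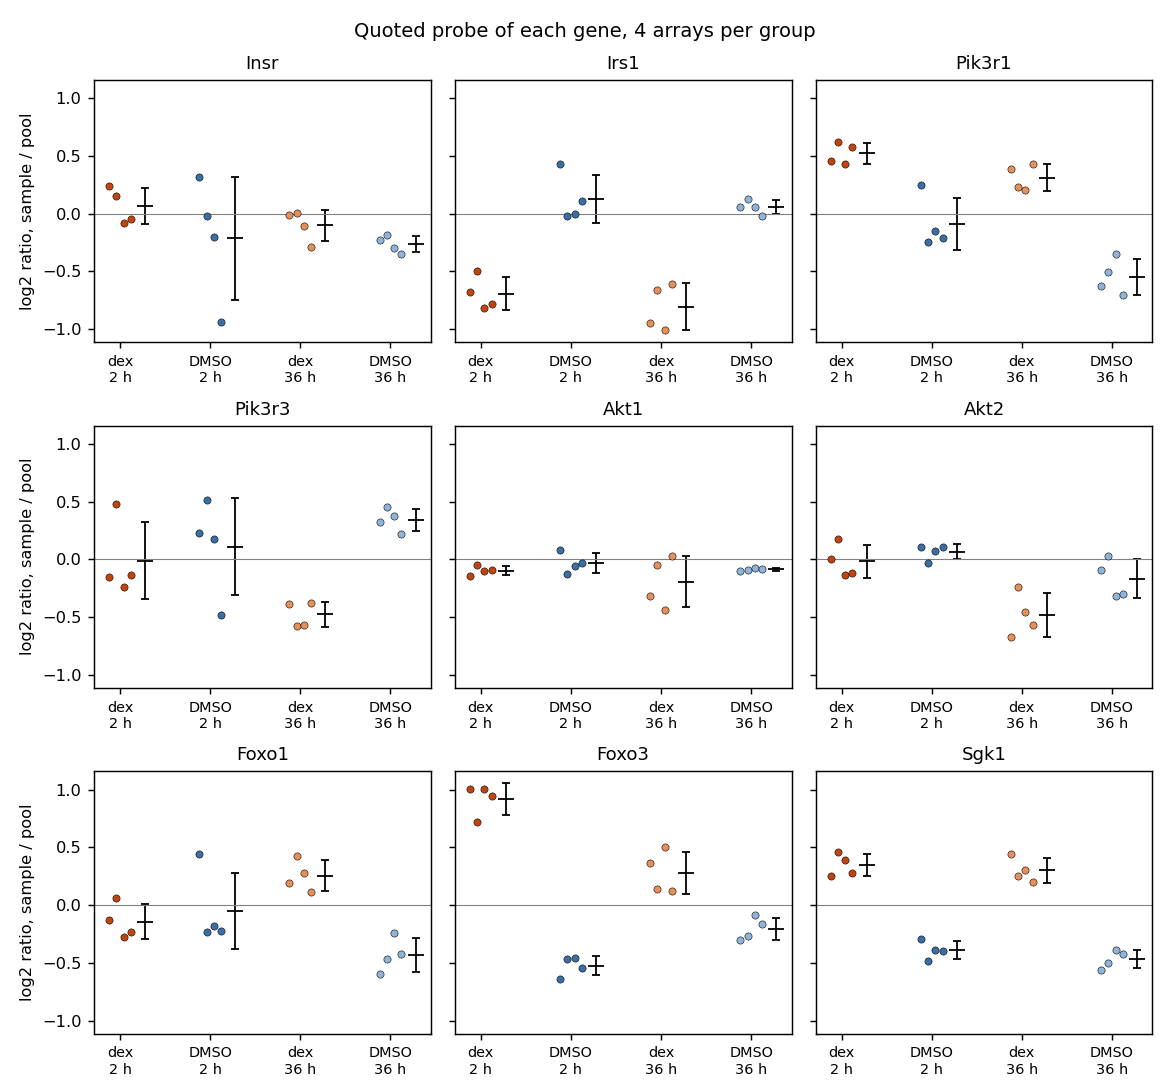
Log2 ratio of sample over pool (vertical axis) of the quoted probe of each of the 9 genes, for dex and DMSO at 2 h and 36 h. Each point is 1 array, and the bar beside the points is the mean with its SD (n = 4). Irs1 lay lower on the dex arrays at both times, and Pik3r1, Foxo3 and Sgk1 lay higher on them at both times. Pik3r3 and Foxo1 separated by treatment only at 36 h among the times measured.

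At the top of the pathway, Irs1, the adaptor that links the insulin and IGF1 receptors to PI3K, was lower in dex on both of its probes. Each gene is quoted through 1 probe, chosen by the lowest p of a limma F test that covers the dex effects of both times. The choice used the same contrasts that are reported, so quoted changes tend to be larger than those of a gene's other probes. The quoted Irs1 probe, mMC008279, read -0.68, -0.49, -0.81 and -0.78 on the 4 arrays of dex at 2 h, against 0.43, -0.023, -0.00072 and 0.11 on those of DMSO. Each dex array was below each DMSO array. The difference was -0.82 ± 0.12 on the log2 scale (SE, n = 4 per group), or 1.77-fold lower, with a limma adjusted p of 0.000632. At 36 h the readings were -0.95, -0.66, -1.01 and -0.61 in dex, against 0.058, 0.12, 0.056 and -0.020 in DMSO. The groups were again apart, with the DMSO arrays close to each other and the dex arrays more spread. The difference at 36 h was -0.86 ± 0.12 (adjusted p = 0.000199), which is 1.82-fold lower. The other probe, mMR030291, gave -0.73 ± 0.14 at 2 h (adjusted p = 0.00674) and -0.96 ± 0.14 at 36 h (adjusted p = 0.000316). The effect at 36 h minus that at 2 h was -0.040 (95% interval -0.39 to 0.31) on the quoted probe and -0.23 (-0.65 to 0.18) on the other. By mean level, lowest first, the groups were dex at 36 h, -0.81 ± 0.20, dex at 2 h, -0.69 ± 0.14, DMSO at 36 h, 0.055 ± 0.059, and DMSO at 2 h, 0.13 ± 0.21 (SD, n = 4 each). Neither the dex groups (adjusted p = 0.739) nor the DMSO groups (adjusted p = 0.874) were shown to differ between times.

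Insr, which encodes the receptor itself, had 1 probe and was not called in any of the comparisons. Its readings were 0.24, 0.16, -0.083 and -0.043 in dex at 2 h, against 0.31, -0.024, -0.20 and -0.94 in DMSO. The DMSO arrays at 2 h spanned a wider range than the dex arrays, with replicate 4 the lowest. At 36 h they were -0.0082, 0.00091, -0.10 and -0.29 in dex, against -0.23, -0.18, -0.29 and -0.35 in DMSO, and the groups overlapped. The differences were 0.28 at 2 h (95% interval -0.12 to 0.68, limma adjusted p = 0.642) and 0.16 at 36 h (-0.24 to 0.57, adjusted p = 0.742), so a rise as large as the upper bound at 2 h lies within the interval. The 2-hour value was 0.038 without DMSO replicate 4. Irs3, a further substrate gene known from rodent fat cells, came from the list of other pathway genes. It differed by -0.0035 ± 0.12 at 2 h (adjusted p = 0.995), whereas it fell at 36 h, with -0.85 to -0.46 on the dex arrays and 0.21 to 0.39 on the DMSO arrays and a difference of -0.90 ± 0.12 (adjusted p = 0.000172). For Irs3 the difference between the effects at the times was itself called, at -0.90 ± 0.17 (adjusted p = 0.00916).

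The regulatory subunits of PI3K bind phosphorylated substrates and hold the catalytic subunit. At 36 h Pik3r1 rose and Pik3r3 fell, while Pik3r2, the beta subunit gene, from the list of other pathway genes, was not called, with -0.078 at 2 h (limma adjusted p = 0.837) and 0.075 at 36 h (adjusted p = 0.798). Pik3r1, the gene of the alpha subunit and its shorter forms, was higher in dex at both times. Its quoted probe, mMA032785, read 0.46, 0.61, 0.43 and 0.58 in dex at 2 h, against 0.25, -0.25, -0.15 and -0.21 in DMSO. At 36 h it read 0.38, 0.23, 0.20 and 0.43 in dex, against -0.63, -0.51, -0.35 and -0.71 in DMSO. The dex arrays were above all DMSO arrays at each time, although DMSO replicate 1 at 2 h stood above the other 3. The rise was 0.61 ± 0.11 at 2 h (1.53-fold, limma adjusted p = 0.00569) and 0.86 ± 0.11 at 36 h (1.81-fold, adjusted p = 0.000140). A fit of the 8 arrays of 2 h alone did not call Pik3r1 there (adjusted p = 0.0889).

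The 4 probes of Pik3r1 did not respond alike. Probe mMR026375 rose by 0.47 at 2 h (adjusted p = 0.0416) and by 0.79 at 36 h (adjusted p = 0.000305), close to the quoted one. Probe mMA031737 had a smaller difference, 0.19 at 2 h, which was not called, and 0.26 at 36 h (adjusted p = 0.0485). Probe mMA032318 was not called, with 0.21 (-0.25 to 0.68) and 0.16 (-0.31 to 0.62) at 2 h and 36 h. In the annotation none of the other 3 probes shares a transcript record with the quoted probe, and whether those 3 share records with each other was not examined. The quoted probe is not annotated to a RefSeq mRNA, whereas mMR026375 and mMA032318 are. With the 4 probes averaged before the fit, the differences were 0.37 ± 0.080 at 2 h and 0.52 ± 0.080 at 36 h, with adjusted p values of 0.0153 and 0.000507. The quoted probe was highest in dex at 2 h (0.52 ± 0.091), then in dex at 36 h (0.31 ± 0.11), DMSO at 2 h (-0.090 ± 0.23) and DMSO at 36 h (-0.55 ± 0.16). The DMSO arrays at 36 h were all below those at 2 h, a difference of -0.46 that did not pass (adjusted p = 0.0867). It passed when DMSO replicate 4 at 2 h was left out (adjusted p = 0.0499).

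Pik3r3, the gene of the gamma subunit, was lower in dex at 36 h. The quoted probe, mMC010045, read -0.38, -0.57, -0.57 and -0.38 in dex, against 0.32, 0.45, 0.37 and 0.22 in DMSO, and every dex array was below every DMSO array. The difference was -0.82 ± 0.18 (1.76-fold lower, limma adjusted p = 0.0104). At 2 h it read -0.15, 0.48, -0.24 and -0.13 in dex, against 0.23, 0.52, 0.17 and -0.48 in DMSO. The groups overlapped then, with 1 high array in dex and 1 low array in DMSO, and differed by -0.12 (-0.51 to 0.27, adjusted p = 0.869). The difference between the effects at the times was -0.70 ± 0.26 and did not pass (adjusted p = 0.226), so the effect was not shown to differ between 2 h and 36 h. By mean, lowest first, the groups were dex at 36 h (-0.48 ± 0.11), dex at 2 h (-0.011 ± 0.33), DMSO at 2 h (0.11 ± 0.42) and DMSO at 36 h (0.34 ± 0.096), and no neighbours in that order were shown to differ. The second probe, mMR028183, had -0.43 at 36 h with no overlap of the arrays but an adjusted p of 0.106, and it shares 2 transcript records with the quoted probe. With the 2 probes averaged before the fit, the difference at 36 h was -0.62 ± 0.16 (limma adjusted p = 0.0234).

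**Figure D2:**
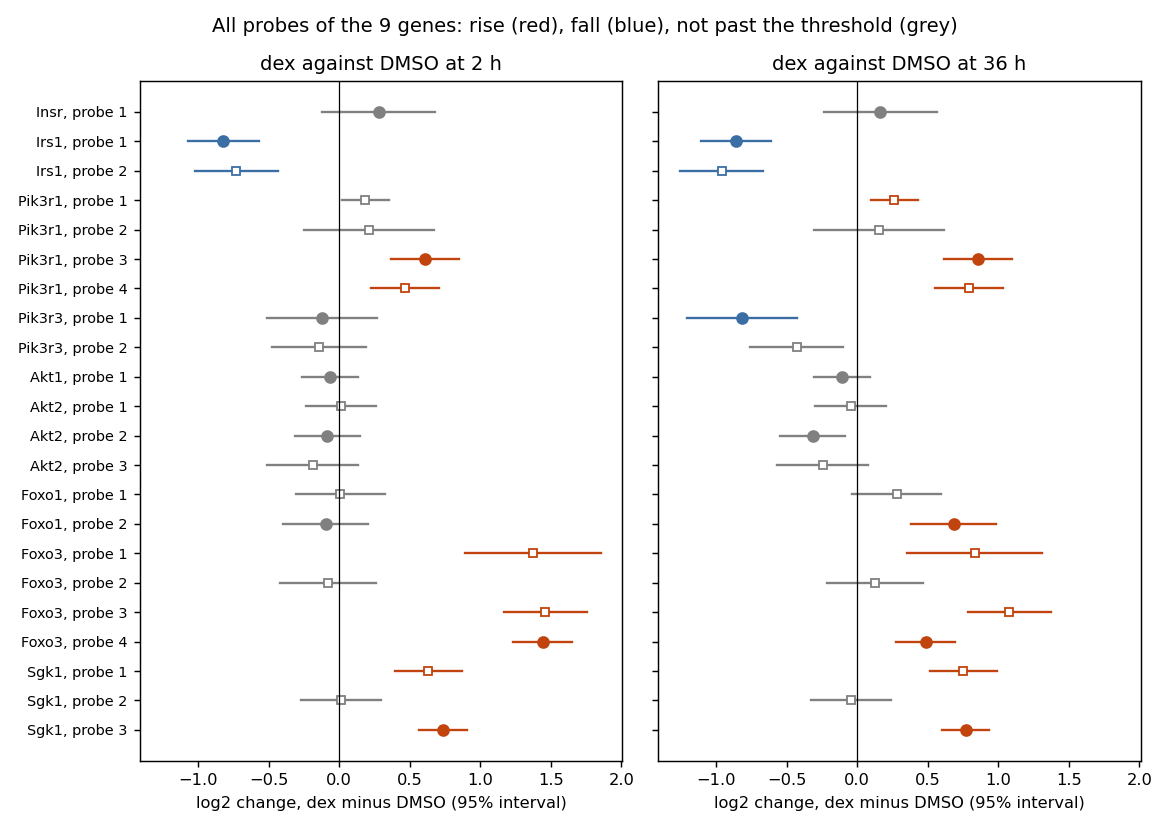
Log2 change of dex minus DMSO (horizontal axis) with its 95% interval for each of the 22 probes at 2 h (left) and 36 h (right), with filled circles for the quoted probes and open squares for the others. Probes called higher are red, probes called lower are blue and the rest are grey. Both Irs1 probes fell, while 1 probe each of Foxo3 and Sgk1 lay near 0 beside probes of the same gene that rose.

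Of the kinases below PI3K, Akt1 and Akt2 were not called for dex against DMSO. Akt1, the AKT gene found in most tissues, had 1 probe, with -0.15 to -0.046 on the dex arrays and -0.13 to 0.084 on the DMSO arrays at 2 h. At 36 h the ranges were -0.44 to 0.026 in dex and -0.097 to -0.072 in DMSO, overlapping at both times. The differences were -0.065 (-0.26 to 0.13) at 2 h and -0.11 (-0.31 to 0.094) at 36 h, so falls of the size of the lower bounds cannot be told from no change. Akt2, the form needed for insulin-stimulated glucose uptake in fat and muscle, had 3 probes. Its quoted probe, mMR030538, read -0.67, -0.23, -0.45 and -0.57 in dex at 36 h, against -0.089, 0.034, -0.32 and -0.30 in DMSO, which overlap. The difference was -0.32 ± 0.11 (adjusted p = 0.0907), and the other 2 probes gave -0.25 and -0.045, not called. Left without dex replicate 2 at 36 h, whose reading was the highest of its group, the quoted probe was called (difference -0.40, adjusted p = 0.0263). At 2 h the 3 probes lay between -0.19 and 0.013.

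Sgk1, a kinase that resembles AKT and is named for its induction by serum and glucocorticoids, rose at both times by about the same amount. The quoted probe, mMC020746, read 0.25, 0.46, 0.39 and 0.28 in dex at 2 h, against -0.30, -0.48, -0.39 and -0.39 in DMSO. At 36 h it read 0.45, 0.25, 0.30 and 0.20 in dex, against -0.56, -0.50, -0.39 and -0.42 in DMSO. All dex arrays were above 0, that is above the pool, and all DMSO arrays below it. The rise was 0.74 ± 0.079 at 2 h (1.67-fold, limma adjusted p = 3.92e-05) and 0.77 ± 0.079 at 36 h (1.70-fold, adjusted p = 1.21e-05), and the effects differed by 0.032 (95% interval -0.21 to 0.27). The dex groups averaged 0.35 ± 0.098 at 2 h and 0.30 ± 0.10 at 36 h and the DMSO groups -0.39 ± 0.075 and -0.47 ± 0.077, with no difference between times shown in dex (adjusted p = 0.872) or DMSO (adjusted p = 0.771). Probe mMA031642, annotated to the same 8 transcript records, rose by 0.63 and 0.75 at 2 h and 36 h. Probe mMC003046, annotated to 1 of those 8 records, differed by 0.013 (-0.27 to 0.30) and -0.044 (-0.33 to 0.24) and was not called. With the 3 probes averaged before the fit, the rise was 0.46 ± 0.073 at 2 h (limma adjusted p = 0.00128) and 0.49 ± 0.073 at 36 h (adjusted p = 0.000374).

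The promoter sequences of the genes were searched for the glucocorticoid receptor's binding motif. The RefSeq promoter table (build GRCm38.p6) held 21 windows for 9 of the 10 genes, each from 250 bases before to 50 bases after an annotated start site. Insr had no window and was not searched, while Irs2, which has no expression value here, had 1. The motif searched was the palindrome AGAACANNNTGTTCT, which reads alike on both strands, and its 6-base arm AGAACA was also searched on both strands, so each palindrome holds 2 arms. Of the 21 windows 1 held the palindrome, an Sgk1 window, against 3 of 32851 windows in the table (0.00913%). The Sgk1 window, with the arms in capitals, is shown because it alone of the 21 holds the palindrome. The single windows of Foxo3 and Irs1 are shown beside it because these genes were also called at both times and their windows hold no arm. Each is written 5′ to 3′ on the gene's strand.
Sgk1, chr10:21993640-21993939, plus strand: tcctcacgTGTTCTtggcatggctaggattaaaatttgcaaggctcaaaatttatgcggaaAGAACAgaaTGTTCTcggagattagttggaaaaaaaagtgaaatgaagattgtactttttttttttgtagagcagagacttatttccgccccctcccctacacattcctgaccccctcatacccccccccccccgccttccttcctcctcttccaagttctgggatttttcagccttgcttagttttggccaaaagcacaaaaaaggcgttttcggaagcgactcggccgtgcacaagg
Foxo3, chr10:42276646-42276945, minus strand: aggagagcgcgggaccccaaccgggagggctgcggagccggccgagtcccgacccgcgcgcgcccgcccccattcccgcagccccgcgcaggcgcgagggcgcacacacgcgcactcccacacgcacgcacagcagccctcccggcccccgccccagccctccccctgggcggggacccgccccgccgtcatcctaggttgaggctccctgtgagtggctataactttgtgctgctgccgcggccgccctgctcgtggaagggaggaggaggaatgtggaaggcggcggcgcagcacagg
Irs1, chr1:82291390-82291689, minus strand: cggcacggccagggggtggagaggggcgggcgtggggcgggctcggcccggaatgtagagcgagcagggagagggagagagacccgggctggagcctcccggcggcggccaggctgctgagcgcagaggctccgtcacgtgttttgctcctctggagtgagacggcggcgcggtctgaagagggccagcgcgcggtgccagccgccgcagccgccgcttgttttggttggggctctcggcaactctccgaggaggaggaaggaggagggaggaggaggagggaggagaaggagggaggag
The palindrome, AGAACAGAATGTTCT, lies at chr10:21993701-21993715 and begins 189 bases before the start site of its window and 965 bases before the next annotated Sgk1 start site downstream. Another arm lies near the 5′ end of the window. The arm AGAACA was in 3 of the 6 Sgk1 windows and in no window of the other genes, against 19.0% of all windows. Pik3r1 had 2 windows and neither held an arm. A FOXO core motif, GTAAACA on either strand, was in 1 of the 21 windows, of Akt1, against 3.65% of all windows. A match is a description of the letters and does not show binding, and a window without one says nothing of sites outside it. Only these exact letters were searched, so sites that depart from them were not looked for within the windows either.

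Of the FOXO factors, which AKT and SGK1 phosphorylate, Foxo3 was called higher in dex at both times and Foxo1 at 36 h. Foxo3 had the largest 2-hour change among the quoted probes of the 9 genes. The quoted probe, mMC014829, read 1.001, 0.72, 1.01 and 0.94 in dex at 2 h, against -0.63, -0.47, -0.46 and -0.54 in DMSO. At 36 h it read 0.36, 0.14, 0.50 and 0.12 in dex, against -0.30, -0.26, -0.087 and -0.16 in DMSO. The groups were apart at both times, but the distance between them was smaller at 36 h, where dex was nearer the pool and DMSO was too. The rise was 1.44 ± 0.099 at 2 h (2.72-fold, limma adjusted p = 4.94e-07) and 0.49 ± 0.099 at 36 h (1.40-fold, adjusted p = 0.00569). The effect at 36 h minus that at 2 h was -0.96 ± 0.14 (adjusted p = 0.00123), so the rise was smaller at 36 h on this probe. By mean, highest first, the groups were dex at 2 h (0.92 ± 0.14), dex at 36 h (0.28 ± 0.18), DMSO at 36 h (-0.20 ± 0.098) and DMSO at 2 h (-0.52 ± 0.082). The dex groups differed between times, and the DMSO groups were not shown to.

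The rise at 2 h was called on 3 of the 4 Foxo3 probes, and the change of the effect with time on the quoted one alone. Probe mMC014692 rose by 1.46 ± 0.14 at 2 h and 1.08 ± 0.14 at 36 h, and its arrays read 0.36 to 0.82 in dex and -0.99 to -0.36 in DMSO at 2 h. Probe mMA033241 rose by 1.37 ± 0.23 and 0.83 ± 0.23 at the same times. On neither of these did the difference between the effects pass, with -0.38 (-0.80 to 0.031, adjusted p = 0.409) and -0.54 (-1.22 to 0.14, adjusted p = 0.491), although both were in the same direction as on the quoted probe. Probe mMC003480, annotated to 1 transcript record that the quoted probe does not carry, was not called, with -0.078 (-0.42 to 0.26) at 2 h and 0.13 (-0.21 to 0.47) at 36 h. Its arrays lay within -0.094 to -0.035 in dex at 2 h, against -0.40 to 0.67 in DMSO, where replicate 4 was the high one. Probe mMC014692, which rose, shares no record with the quoted probe either. The quoted probe is annotated to 1 record, which is not a RefSeq mRNA and which mMA033241 shares. The 4 probes averaged before the fit gave 1.05 ± 0.075 at 2 h, 0.63 ± 0.075 at 36 h and a difference between the effects of -0.42 (adjusted p = 0.0451).

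**Figure D3:**
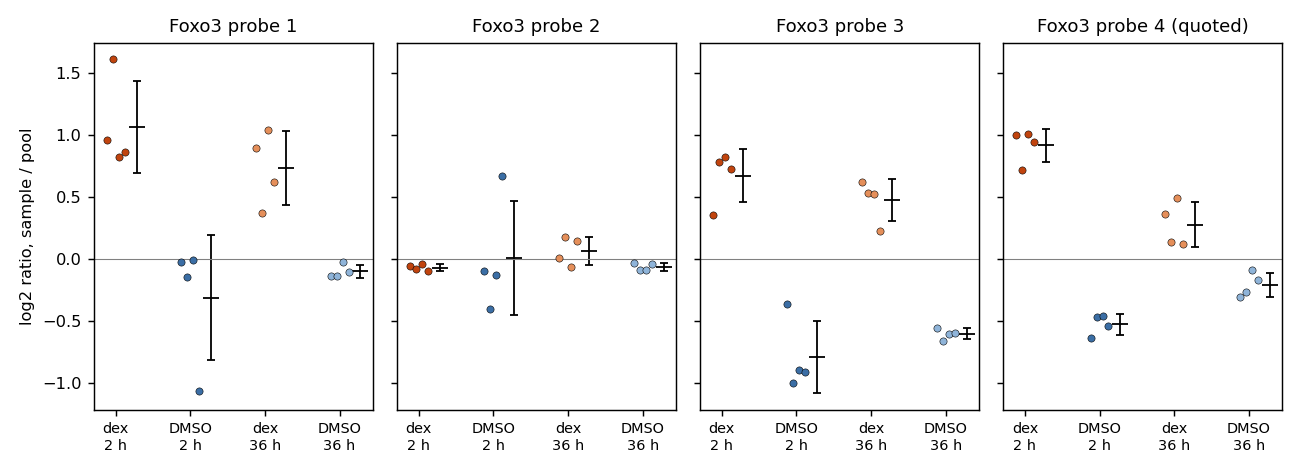
Log2 ratio of sample over pool (vertical axis) for the 4 probes of Foxo3, from left to right mMA033241, mMC003480, mMC014692 and mMC014829, for dex and DMSO at 2 h and 36 h. Points are arrays and bars are the mean with its SD (n = 4). On 3 probes all dex arrays lay above all DMSO arrays at each time, while on mMC003480 the groups overlapped.

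Foxo1, the FOXO factor best known in adipocyte differentiation, was not called at 2 h and rose at 36 h. The quoted probe, mMR029123, read -0.13, 0.063, -0.27 and -0.23 in dex at 2 h, against 0.45, -0.23, -0.18 and -0.23 in DMSO. At 36 h it read 0.19, 0.43, 0.28 and 0.12 in dex, against -0.60, -0.46, -0.24 and -0.43 in DMSO. The groups overlapped at 2 h, where DMSO replicate 1 was far above the other 3 DMSO arrays, and did not overlap at 36 h. The differences were -0.095 (-0.40 to 0.21, limma adjusted p = 0.867) at 2 h and 0.68 ± 0.14 (1.61-fold, adjusted p = 0.00612) at 36 h. Their difference, 0.78 ± 0.20, did not pass (adjusted p = 0.0553), and it passed without DMSO replicate 1 at 2 h (0.61, adjusted p = 0.0314), without DMSO replicate 4 at 2 h (0.84, adjusted p = 0.0355) or without dex replicate 2 at 2 h (0.85, adjusted p = 0.0444). It did not pass when any other 1 array was left out. Of the 23 alternatives tried in all, it passed in 7 and not in 16, with limma adjusted p values up to 0.130. The second probe, mMC014112, had 0.0095 at 2 h and 0.28 at 36 h and was not called, and it shares no transcript record with the quoted one. With the 2 probes averaged before the fit, the differences were -0.043 at 2 h and 0.48 ± 0.094 at 36 h (limma adjusted p = 0.00354). The difference between those effects was 0.52 (adjusted p = 0.0453). By mean the quoted probe was highest in dex at 36 h (0.25 ± 0.13), followed by DMSO at 2 h (-0.049 ± 0.33), dex at 2 h (-0.14 ± 0.15) and DMSO at 36 h (-0.43 ± 0.15). Among the other FOXO genes, which came from the list of other pathway genes, Foxo6 rose by 0.69 ± 0.14 (adjusted p = 0.00604) and Foxo4 by 0.61 (adjusted p = 0.00424) at 36 h, with 0.076 and 0.25 at 2 h, not called.

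Time in culture was compared within each treatment on the same arrays, so these values stand beside the dex comparisons and are no separate test of them. In DMSO none of the 9 genes was called at 36 h against 2 h in limma, against 1.26% of all genes, while 5 of the 22 probes had an unadjusted p under 0.05, against 11.6% of all probes. They were the quoted probes of Pik3r1, Akt2, Foxo1 and Foxo3 and mMR026375 of Pik3r1. Foxo1 had -0.38 (adjusted p = 0.287) and Foxo3 0.32 (adjusted p = 0.187), in opposite directions. In dex 2 genes were called at 36 h against 2 h, against 2.43% of all genes, and both were lower (1.41%). Foxo3 was lower, with a difference of -0.64 ± 0.099 on its quoted probe (adjusted p = 0.00391), with -0.20 and -0.33, not called, on the other probes that responded to dex. Akt2 was lower, with a difference of -0.47 ± 0.11 on its quoted probe (adjusted p = 0.0437). Foxo1, not called here (0.40, adjusted p = 0.212), was called higher with array weights (0.43, adjusted p = 0.00898) and without DMSO replicate 1 at 2 h (0.40, adjusted p = 0.0433). The call of Akt2 was lost when any 1 of 11 arrays was left out, with adjusted p values up to 0.170, and the other 2 Akt2 probes gave -0.28 and -0.044. For the difference of the dex effects, 1 of the 9 genes was called, Foxo3, against 3.48% of all genes in either direction and 1.36% with a smaller effect at 36 h. Dex and DMSO arrays did not overlap on 9 of the 22 probes at 2 h, against 5.89% of all probes, and on 13 at 36 h, against 26.8%. Across time the arrays did not overlap on 4 probes in dex (11.9% of all probes) and on 4 in DMSO (10.5%).

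The rest of the pathway was described from 4 lists, by counts of genes called and by the median of the genes' quoted probes. Of 36 other genes of the insulin and PI3K pathway, 0 rose and 1 fell at 2 h, where limma called 3.18% of all genes, and 3 rose and 4 fell at 36 h, where it called 11.7%. The list's median was -0.0084 at 2 h and -0.038 at 36 h, beside -0.012 and -0.0012 over all genes. At 2 h the gene called was Rhoq, a small GTPase of glucose transporter traffic, with -0.56 to -0.38 on the dex arrays and -0.082 to 0.083 on the DMSO arrays (-0.52 ± 0.13, adjusted p = 0.0406). At 36 h Tbc1d4, the AKT substrate that restrains glucose transporter traffic, rose by 0.71 ± 0.13 (adjusted p = 0.00201), as did Foxo4 and Foxo6. Those lower at 36 h were Irs3, the kinase Sgk2 (-0.71 ± 0.15, adjusted p = 0.00570), the adaptor Grb2 (-0.40, adjusted p = 0.0132) and the basal glucose transporter Slc2a1 (-0.38, adjusted p = 0.0403). The second Tbc1d4 probe gave 0.22 at 36 h and was not called.

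Among 23 negative regulators of the pathway, 2 rose and 3 fell at 2 h, and 4 rose and 3 fell at 36 h. Of all genes, 1.97% rose and 1.21% fell at 2 h, and 6.88% rose and 4.96% fell at 36 h. The list's median was -0.039 at 2 h and 0.048 at 36 h, beside -0.012 and -0.0012 over all genes. Dok1, an adaptor that damps signalling from receptor tyrosine kinases, had 0.93 to 1.10 on the dex arrays and -0.77 to -0.64 on the DMSO arrays at 2 h. Its rise was 1.74 ± 0.069 at 2 h (limma adjusted p = 9.74e-10) and 0.67 ± 0.069 at 36 h (adjusted p = 1.19e-05), smaller at the later time (difference -1.07 ± 0.097, adjusted p = 2.00e-05), and its other 2 probes rose at both times too. Grb10, an adaptor that binds and inhibits the insulin receptor, rose by 0.69 ± 0.15 at 2 h (adjusted p = 0.0166), whereas its second probe gave 0.33 and was not called. The cytokine signalling suppressors fell at 2 h, with differences of -1.11 for Socs3 (adjusted p = 6.47e-05) and -0.59 for Socs1 (adjusted p = 0.000776), though the second Socs1 probe, at -0.28, was not called. At 36 h Socs3 had -0.30 (adjusted p = 0.167), and the difference between its effects was called (0.80, adjusted p = 0.0244). Socs1 was called lower at 36 h as well, with -0.30 (limma adjusted p = 0.0445), while its second probe, at -0.14, was not called. Prkcd, a protein kinase C gene, fell at both times, with -0.48 and -0.42. Pik3ip1, which binds and inhibits the PI3K catalytic subunit, rose by 0.64 ± 0.13 at 36 h (adjusted p = 0.00435), with 0.098 to 0.50 in dex and -0.41 to -0.28 in DMSO. Trib3, a pseudokinase that binds AKT, fell, with -0.36 at 36 h on 1 of 4 probes (adjusted p = 0.0378), and the phosphatase genes Ppp2r1a and Ppp2ca rose by 0.27 and 0.26.

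**Figure D4:**
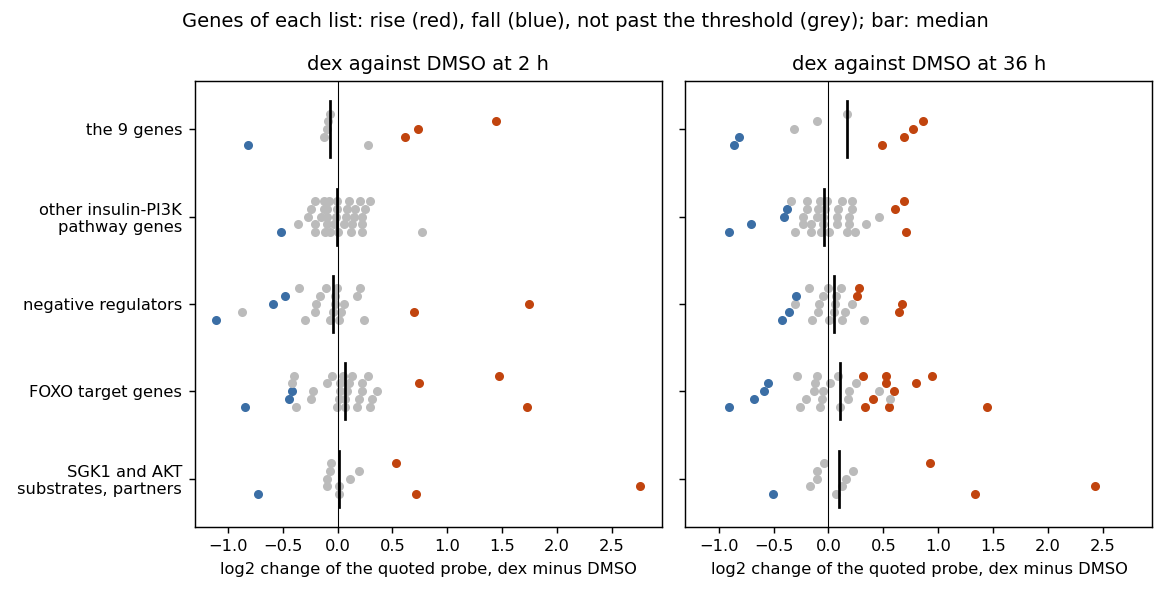
Log2 change of dex minus DMSO (horizontal axis) of the quoted probe of each gene at 2 h (left) and 36 h (right), by list. Red points rose and blue points fell at a limma adjusted p under 0.05 on that probe, grey points did not pass, and the black bar is the median of the list. FOXO target genes had 3 points called higher and 3 called lower at 2 h, and 10 higher and 4 lower at 36 h. Of all genes, 3.18% were called at 2 h and 11.7% at 36 h.

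FOXO target genes, known as transcriptional targets of FOXO factors in various tissues, numbered 31 measured, of which 3 rose and 3 fell at 2 h and 10 rose and 4 fell at 36 h. Of all genes, 1.97% rose and 1.21% fell at 2 h, and 6.88% rose and 4.96% fell at 36 h. The list's median was 0.063 at 2 h and 0.10 at 36 h, beside -0.012 and -0.0012 over all genes. Pdk4, which restrains glucose oxidation and is also a known glucocorticoid target, rose by 1.73 ± 0.11 at 2 h (limma adjusted p = 2.99e-07) and 1.44 ± 0.11 at 36 h (adjusted p = 5.17e-07). Its arrays were 0.58 to 0.90 in dex and -1.15 to -0.80 in DMSO at 2 h. Sesn1, a stress-responsive inhibitor of mTORC1, rose by 1.47 ± 0.17 at 2 h (adjusted p = 9.82e-05) and had 0.56 at 36 h (adjusted p = 0.0592). Fbxo32, the ubiquitin ligase atrogin-1 of muscle wasting, rose by 0.74 ± 0.10 at 2 h (adjusted p = 0.000376) and had 0.011 at 36 h, and that difference was called (adjusted p = 0.0102). The second Fbxo32 probe had 1.47 at 2 h with a wide error and was not called (adjusted p = 0.210). The stress gene Gadd45a fell, with -0.85 at 2 h (adjusted p = 5.90e-05) and had -0.21 at 36 h (adjusted p = 0.222). At 36 h the antioxidant enzyme gene Cat rose by 0.79 ± 0.097 (adjusted p = 6.75e-05) and the cyclin gene Ccnd1, which FOXO factors are known to repress, by 0.94 ± 0.11 (adjusted p = 5.02e-05). The proapoptotic gene Bcl2l11 fell at both times, with -0.44 and -0.91, and so did Ccnd2, with -0.41 and -0.59. The other genes that rose at 36 h were Sod2, Pnpla2, Bcl6, Cited2, Gabarapl1, Map1lc3b and Prdx3, by 0.31 to 0.60, and the others that fell were Sesn3 (-0.68) and Ppargc1a (-0.55). The genes called thus include ones that FOXO factors are known to activate on both sides, such as Pdk4 and Cat among those higher and Bcl2l11 and Sesn3 among those lower. The list shares 2 genes with the list of other pathway genes.

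Of 12 substrate and partner genes of SGK1 and AKT, 3 rose and 1 fell at 2 h, and the same counts held at 36 h. Of all genes, 1.97% rose and 1.21% fell at 2 h, and 6.88% rose and 4.96% fell at 36 h. The list's medians were 0.012 at 2 h and 0.097 at 36 h, beside -0.012 and -0.0012 over all genes. Tsc22d3, the glucocorticoid-induced leucine zipper, rose by 2.76 ± 0.24 at 2 h (limma adjusted p = 4.33e-06) and 2.43 ± 0.24 at 36 h (adjusted p = 6.52e-06). Ndrg1, a phosphorylation substrate of SGK1, rose by 0.72 ± 0.13 (adjusted p = 0.00641) and 0.93 ± 0.13 (adjusted p = 0.000363) at these times. Its relative Ndrg2 was called at 36 h only, at 1.34 ± 0.25 (adjusted p = 0.00295), and the difference between its effects did not pass (adjusted p = 0.0998). Nedd4l, the ubiquitin ligase that SGK1 inhibits, rose by 0.54 ± 0.13 at 2 h (adjusted p = 0.0423) and had -0.10 at 36 h. Hk2, the hexokinase that AKT holds at mitochondria, fell, with -0.73 at 2 h (adjusted p = 0.00118) and had -0.041 at 36 h, a difference that was called (adjusted p = 0.0296). Slc9a3r2, a scaffold protein that binds SGK1, fell, with -0.50 at 36 h (adjusted p = 0.0239), and its second probe was not called.

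For each of the 6 genes whose quoted probe passed the F test, the 3 genes with the highest Pearson correlation over the 16 arrays were found. The arrays share the pool and fall into 4 groups, so these values describe likeness over the groups and carry no test. Irs1 was most like Enc1 (0.982), Stc1 (0.976) and Mylip (0.967). Pik3r1 was most like Apbb2 (0.957), Nrip1 (0.947) and Sema6d (0.939), and of these Nrip1 had differences of 1.08 at 2 h and 1.29 at 36 h. Pik3r3 was most like 9130206I24Rik (0.971), Zfp618 (0.957) and Cnksr3 (0.945), whose 36-hour differences were -0.50, -0.61 and -0.82. Foxo1 was most like Setd3 (0.932), Prkar2a (0.931) and Tspan9 (0.924). Foxo3 was most like Dok1 (0.978), Plekha3 (0.968) and Mt4 (0.968). All 3 had a larger dex effect at 2 h than at 36 h, as the quoted Foxo3 probe did, which follows from how they were chosen. Sgk1 was most like Cyp1b1 (0.987), 2310051E17Rik (0.986) and Zcchc24 (0.986). Among the 9 genes themselves, over the same 16 arrays, Sgk1 had r = 0.90 with Pik3r1, 0.85 with Foxo3 and -0.91 with Irs1, whereas Foxo1 had 0.11 with Foxo3.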

How the data were processed

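RNA of 3T3-L1 cells was measured on 16 two-colour arrays, with sample in Cy5 and a pool in Cy3, per the labels. The values are log ratios deposited by the authors and were used as log2 ratios. Neither the labels nor the file headers record the log base, how background was treated or how each array was normalized. Against a pool of the samples, ratios should average near 1 over the arrays. The median of that average over the 384 most variable probes was 0.976 with base 2 and 1.01 with the natural base. Over the 39 most variable probes it was 1.00 and 1.13. Base 2 was thus not clearly told from the natural base. Arrays limit the precision by their number, and no depth applies. The design text and the submitters' processing notes name limma. Of 38467 probes, 29456 named 1 gene in the platform annotation, 760 several and 8251 none, and 28735 of the single-gene probes were matched to current symbols by Entrez ID. The files lack 131 values, on 3 arrays, and none of them in the probes described.

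Group means of all 16 arrays were fitted per probe with limma 3.58.1 in R 4.3.3 (lmFit, eBayes, residual degrees of freedom 12, prior 3.19), and p-values were adjusted by Benjamini-Hochberg over all probes. The fit was tested on simulated data. The genes named were the 10 symbols, the up to 4 genes with the largest change among those called in each list and time, the 3 genes most like each called gene, and Fkbp5 and Tsc22d3. Other genes of the lists are named where they complete a count and were chosen after their values were seen. The genes and lists were chosen with earlier results of these data known. The replicates are labelled biological replicates, and arrays were not treated as pairs, since no label ties equal replicate numbers to a shared culture. Alternatives were quantile normalization, equal spread per array, array weights, a replicate block, a robust variance prior, the log-odds rule, probes averaged per gene and leaving out each array, and, chosen after seeing the data, a fit of only the 8 arrays compared. Promoter windows came from RefSeq, build GRCm38.p6.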

Additional observations from a re-analysis of the deposited data

Results flagged for a closer look

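In 9 of 88 combinations of a probe and a group, 1 array lay far from the other 3 of its group by Dixon's test at the 95% level, where chance gives about 5% of such groups. The share over all probes of the array was not counted, so this count does not show anything particular to these genes. Of these, 5 were replicate 1 of DMSO at 2 h. That array read 0.45 on the quoted Foxo1 probe, against -0.23 to -0.18 on the others of its group. It read -0.36 on Foxo3 probe mMC014692, 0.059 on Sgk1 probe mMA031642, -0.92 on Pik3r1 probe mMA032318 and 0.15 on Akt2 probe mMC018059. Replicate 4 of DMSO at 2 h read -1.06 on Foxo3 probe mMA033241, against -0.14 to -0.0089 on the others. Replicate 2 of dex at 2 h read 0.48 on the quoted Pik3r3 probe, against -0.24 to -0.13, and -0.82 on Pik3r1 probe mMA032318, against -0.012 to 0.073. Replicate 2 of dex at 36 h read -0.62 on Pik3r3 probe mMR028183, against -0.18 to -0.14. The dex effect on the quoted Foxo3 probe differed between the times by -0.96 (36 h minus 2 h), by the test of that difference in limma.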

How the results depend on the processing

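All 4 genes called at 2 h were called there under every alternative tried, except that the quoted Pik3r1 probe was lost (adjusted p = 0.0889) with only the 8 arrays compared; the cause of this and of the other changes below was not tested. Genes called with only those 8 arrays were 294 at 2 h (625 in the reported fit), 4555 at 36 h (2300), 265 for dex over time (478) and 94 for DMSO over time (248). With quantile normalization they were 4349 at 36 h, 819 and 750 over time in dex and DMSO, and 1405 for the difference of the effects (683). With equal spread they were 4175, 939, 680 and 1414 in the same order, and with array weights 9087, 3973, 501 and 1847. The log-odds rule called 1028 at 36 h. At 36 h the same 6 of the 9 genes were called under the other settings, except that the log-odds rule lost Pik3r3, array weights called all 9 and leaving out dex replicate 2 added Akt2. Genes higher made up 21.4% of the calls for DMSO over time, but 39.4% with quantile normalization and 34.7% with array weights. Of the 9 genes, dex over time kept 1 call, Foxo3, with the 8 arrays, quantile normalization, equal spread, the replicate block or the log-odds rule, and 0 with probes averaged; array weights called 3, adding Foxo1, as did leaving out DMSO replicate 1 at 2 h. The difference of the effects called 3 with quantile normalization (Pik3r3, Foxo1, Foxo3) and 2 (Foxo1, Foxo3) with equal spread, array weights or probes averaged. DMSO over time called 1, Pik3r1, with quantile normalization and equal spread. Log-odds left 1 negative regulator lower and 2 higher at 36 h, 0 other pathway genes lower at 2 h and 2 at 36 h, and 0 SGK1 and AKT partners lower at 36 h; averaging probes left 1 negative regulator and 0 partners lower at 36 h.

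Values near 0 that were not called turned sign. The difference of the effects was 0.024 (quantile) and 0.027 (equal spread) for Akt1, and 0.030 (equal spread) and 0.062 (array weights) for Insr. Irs1 in DMSO over time was 0.0025 with array weights. In dex over time, Pik3r1 was 0.011 with probes averaged, and Sgk1 0.030 with array weights and 0.027 with probes averaged. Leaving out each array gave 475 to 781 genes at 2 h, 1289 to 3082 at 36 h, 456 to 911 for the difference, 167 to 822 for dex over time and 120 to 531 for DMSO over time, and 4, 6 to 7, 1 to 2, 1 to 3 and 0 to 1 of the 9 genes. The same runs gave -0.11 to 0.041 for Akt1, -0.29 to 0.13 for Insr, -0.14 to 0.027 for Irs1 and -0.016 to 0.071 for Sgk1 in the difference of the effects. They gave -0.16 to 0.070 for Foxo1 and -0.32 to 0.015 for Pik3r3 at 2 h, and -0.29 to 0.12 for Insr and -0.12 to 0.025 for Irs1 in DMSO over time. With the replicate number as a block, limma called 564 genes at 2 h, 1986 at 36 h, 533 for the difference, 343 for dex over time and 176 for DMSO over time; Akt2 over time in dex was lost (adjusted p = 0.0501). Deviations of same-numbered dex and DMSO arrays correlated by -0.10, 0.19, 0.041 and 0.26 at 2 h and by -0.024, 0.34, 0.22 and -0.075 at 36 h, so not every pair correlated, and 7 of 16 arrays correlated best with their own number; whether numbers mark shared cultures is not settled by these values. Arrays of 2 h were noisier, no signal over background was used, and ratios to a pool limit what can be said of low genes.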
